A study of Mus musculus with 22 samples.

Results

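Pitx1 knockout tumour cells were compared with control cells of the same mouse tumour model, in EPCAM+ and EPCAM- fractions. The comparison used 8 of the 22 RNA-seq libraries of the series: 4 of the Pitx1 knockout line (Pitx1KO) and 4 of the control line, chosen by their labels as day 8 samples. Each line gave 2 libraries per sorted fraction, numbered 1 and 2, and the number is also the batch tag in the labels. The tumour behind all lines was Lgr5CreER, KrasLSL-G12D, p53fl/fl and Rosa26-YFP+/+, so control and knockout cells share these alleles. Lgr5CreER places an inducible Cre in Lgr5-expressing cells, and p53fl/fl is a p53 gene that Cre deletes. Knockout lines were derived with CRISPR/Cas9, and living single mCherry+ YFP+ cells were sorted by FACS on the epithelial surface protein EPCAM. The labels do not say whether the Pitx1KO line is 1 clone or a pool, nor whether libraries 1 and 2 came from separate cultures. The p-values therefore measure only the spread between these libraries, which may be technical. The series also holds Klf5, Nfatc1 and Creb3l1 knockout lines at day 8 and EPCAM+ control cells at day 0.

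PITX1 is a homeodomain transcription factor of the bicoid type, known for hindlimb and pituitary development. In squamous skin carcinoma it has been placed with SOX2 and TRP63 in a self-renewal circuit opposed by KLF4, a differentiation factor. Keratins 5 and 14 are the intermediate filament pair of basal epidermis, and keratins 6, 16 and 17 are induced in stressed, hyperproliferative and malignant epidermis. EPCAM loss is used in this kind of tumour to separate cells along the epithelial-to-mesenchymal transition.

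Values are read counts scaled to a common total, in deposited units. In the 8 libraries 1 read was worth 2.29 to 2.97 units, and 6723611 to 8722938 reads were recovered in genes. Values are listed below as EPCAM+ 1, EPCAM+ 2, EPCAM- 1 and EPCAM- 2, control line first. In all 19569 genes were tested with limma, averaging the knockout effect over both fractions, and a gene was called at an adjusted p below 0.05. The fractions of 1 line and number deviated together from their group means (correlation across genes 0.695 in control and 0.650 in Pitx1KO libraries), so the 4 libraries of a line are not 4 independent samples. A stricter fit therefore averaged both fractions of a line and number first and compared 2 values with 2. It is called the averaged fit here, and its adjusted p is given beside the main genes. It called 40 genes, and called genes described outside those 40 did not pass it.

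Pitx1 mRNA was reduced but still present in every Pitx1KO library. The gene (chromosome 13, 55825051 to 55836192, minus strand, GRCm38) was at 5432, 4358, 6438 and 5668 in control and at 1473, 1627, 1205 and 1585 in Pitx1KO libraries. All 4 knockout libraries lay below the other 18 libraries of the series, the lowest of which was at 3956. The mean was 3.72-fold lower (log2 -1.89, standard error 0.14, adjusted p 1.56e-06, averaged fit 0.00586), and each knockout library held 18.7 to 37.3% of its matched control. The guide, the edit and the protein are not described in the sources used here, so the remaining mRNA does not show how much protein was made. The overlapping same-strand transcript Gm28760 had means of 150.5 in control and 40.75 in Pitx1KO libraries.

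The PITX and hindlimb list held 12 genes, of which 4 could be tested. The limb genes Tbx4, Tbx5 and Fgf10 were at 0 in all 8 libraries. Tbx3, a T-box repressor of limb and mammary development, fell from 24, 14, 129 and 74 to 0, 0, 0 and 3 (log2 -4.95, adjusted p 0.000164, averaged fit 0.0316). Hoxc9 and Hoxc10 were not called (log2 -0.41 and 0.23). Of the squamous self-renewal list Pitx1 was the only called gene among 7 tested. Sox2 was at 0 to 3 and Trp63 at 0 to 16 in the 8 libraries, so these partners were near the detection limit in both lines. Klf4 was at 2425, 585, 1673 and 445 in control and at 1467, 469, 2205 and 437 in Pitx1KO libraries (log2 -0.17, standard error 0.63, adjusted p 0.934). Sox9 was not called (log2 -0.57, adjusted p 0.292) but passed with the library number as a block (0.0373, averaged fit 0.633).

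Krt17, Krt14, Krt6a and Krt7 fell among 12 keratins tested in both keratin lists. Krt17, the stress keratin that served as a marker of this comparison (chromosome 11, 100256217 to 100261029, minus strand), was at 4365, 3481, 2175 and 3846 in control and at 72, 38, 8 and 37 in Pitx1KO libraries. The groups were apart by more than an order of magnitude, and the mean was 89.5-fold lower (log2 -6.74, standard error 0.45, adjusted p 1.56e-06, averaged fit 0.000629). Krt14, the basal type I keratin (chromosome 11, 100203162 to 100207548, minus strand), was at 12774, 2006, 6797 and 2112 against 331, 106, 52 and 117. It was 39.1-fold lower (log2 -5.17, standard error 0.69, adjusted p 0.000747, averaged fit 0.0424). Control libraries numbered 1 held several times more Krt14 than those numbered 2, and all 4 knockout libraries were below either. Krt7, a simple-epithelial keratin, fell 10.9-fold from 3955, 1860, 476 and 377 to 81, 282, 69 and 177 (log2 -3.04, adjusted p 0.00119, averaged fit 0.0577).

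**Figure D1:**
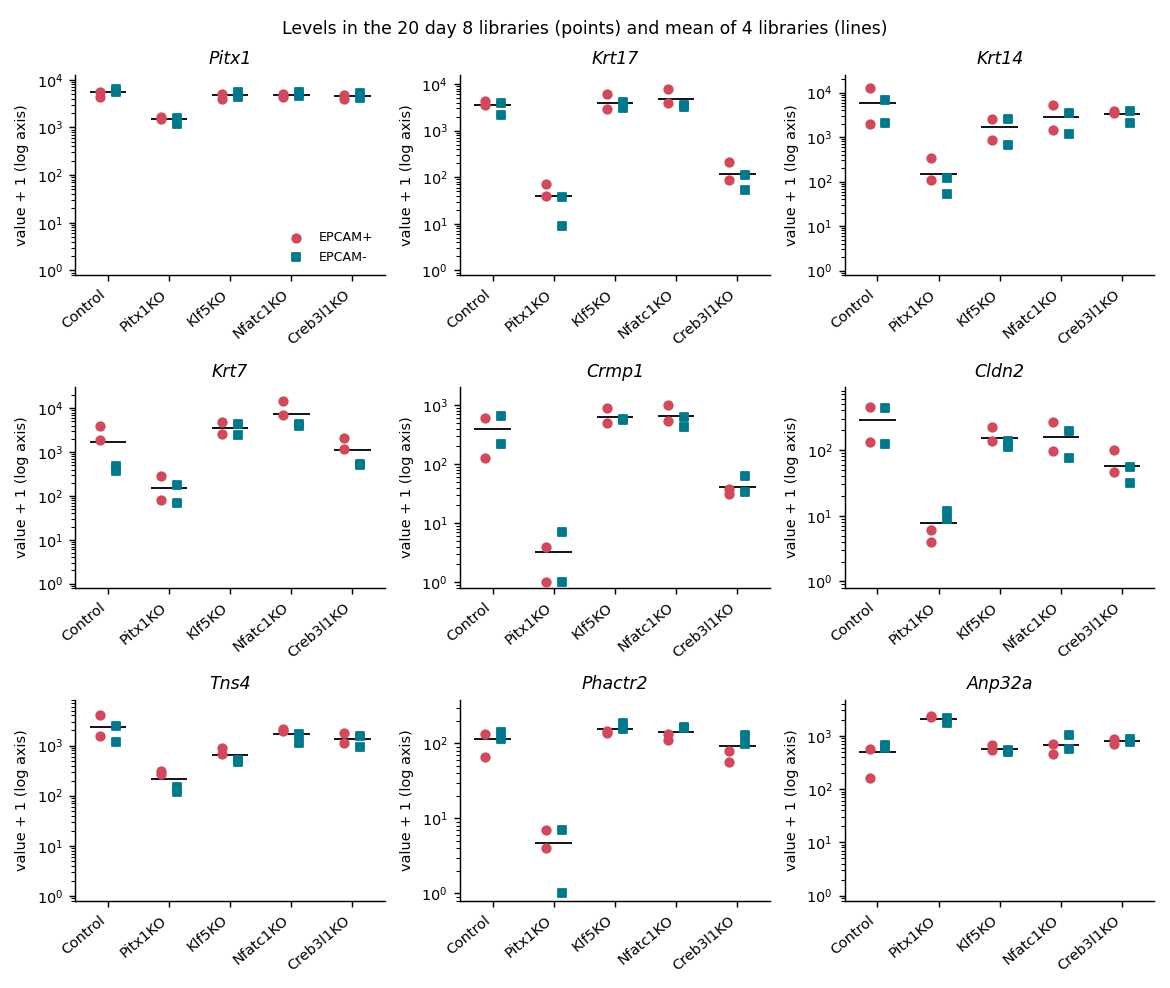
Deposited value plus 1 (log axis) of 9 genes in the 20 day 8 libraries, by line; red circles are EPCAM+, blue squares EPCAM- libraries, and black lines the mean of 4 libraries. Krt17 sits at 8 to 72 in Pitx1KO and at 2175 to 4365 in control libraries, and the Creb3l1KO line is also low in Krt17 and Crmp1.

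Among the basal and stress keratins 3 of 7 tested genes fell and none rose, against 2.06% falls and 2.22% rises among all tested genes. Krt17 was given as a marker and the list was chosen with earlier results of these data known, so this count is a description. The third called gene was Krt6a, at 1415, 157, 112 and 7 in control and at 12, 12, 0 and 6 in Pitx1KO libraries (log2 -4.35, adjusted p 0.00699). Here the groups met at the low end, the call was absent with voom (0.18) and in the averaged fit (0.148), and Krt6a and Krt6b are near-identical copies between which reads can be split. Krt5, Krt15, Krt6b and Krt16 were lower on average without passing (log2 -2.14, -2.65, -3.45 and -0.89, adjusted p 0.383, 0.131, 0.0967 and 0.518), and Krt6b passed with the block (0.0373, averaged fit 0.434). The list median was a log2 fold change of -3.45, against 0.02 over all tested genes, and ranged from -5.48 to -0.19 in the 4 matched pairs. Against the other 3 knockout lines, a comparison given below, the list median was -0.67 and 2 of the 7 genes fell. The main simple-epithelial keratins did not follow Krt7: Krt8 was at 19245, 12292, 10510 and 7622 against 14171, 15640, 9446 and 11944 (log2 0.10, adjusted p 0.79), and Krt18 was not called either (log2 0.08, adjusted p 0.856).

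RefSeq promoter entries were available for 31 of the 40 genes called in the averaged fit, Pitx1 and Krt17 not among them. They were searched for the bicoid-type sequence TAATCC (both strands, GGATTA on the other), since PITX1 is a factor of that type. Slc29a1, a nucleoside transporter gene, fell 2.81-fold from 3151, 2512, 4979 and 3687 to 1410, 1304, 1071 and 1307. It overlaps the antisense transcript Gm17080, also among the 40 (2.94-fold lower). Without stated strand counting their reads cannot be told apart. An entry of Slc29a1 holds 1 match, 99 bases before its start (chr17:45599619-45599868, minus strand, GRCm38.p6). This was 1 of 8 entries of the gene, and it starts 12 bases from the annotated gene start. It is shown with the match in capitals, beside the entry of Cldn2 (chrX:139800558-139800807, plus strand), a strongly reduced claudin gene without a match in this window.
Slc29a1: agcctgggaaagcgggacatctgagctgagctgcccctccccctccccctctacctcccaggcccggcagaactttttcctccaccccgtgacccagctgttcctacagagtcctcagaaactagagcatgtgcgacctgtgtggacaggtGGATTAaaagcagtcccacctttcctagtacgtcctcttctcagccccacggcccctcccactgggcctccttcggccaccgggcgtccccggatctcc
Cldn2: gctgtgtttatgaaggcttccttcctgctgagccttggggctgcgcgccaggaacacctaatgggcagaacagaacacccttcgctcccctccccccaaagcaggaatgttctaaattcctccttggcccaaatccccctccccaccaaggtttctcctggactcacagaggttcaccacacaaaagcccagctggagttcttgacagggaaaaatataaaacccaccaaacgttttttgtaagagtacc
The motif was in 7.06% of all 32851 RefSeq promoter windows (250 bases before to 50 after a start). Counted by gene, it was in 6.93% of 10956 tested genes with a window, in 15 of 293 falls (5.12%) and in 24 of 329 rises (7.29%). Among the 31 genes of the averaged fit with an entry it was in 2 (6.45%), near the share of all tested genes. The entry of Krt14 also holds a match, but it starts 1518 bases inside the annotated gene and is not shown. Some other entries likewise start inside genes. A match is a description of these letters, and binding was not measured.

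Across all tested genes 838 were called (4.28%), 434 higher and 404 lower in Pitx1KO cells. Falls were larger than rises: the median called fall was a log2 change of -1.27 and the median called rise 0.76, and 137 falls but 38 rises reached an absolute log2 change of 2. In 24 called falls all 4 Pitx1KO libraries were at 0. The 8 libraries did not overlap between lines in 684 of the 838 called genes (81.6%), against 10.5% of all tested genes. The number called depended on how the libraries were treated. With the library number as a block it was 1717 (928 rose, 789 fell), and 837 of the 838 genes were among them. In the averaged fit it was 40 (0.204%), 35 lower and 5 higher, all of them among the 838. Without 1 library it was 553 (control EPCAM+ 1 left out), 476 (control EPCAM- 1) and 455, 522, 507 and 479 (the 4 Pitx1KO libraries in the order above). Without both fractions of 1 number it was 446 (control 1), 836 (control 2), 400 (Pitx1KO 1) and 398 (Pitx1KO 2).

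**Figure D2:**
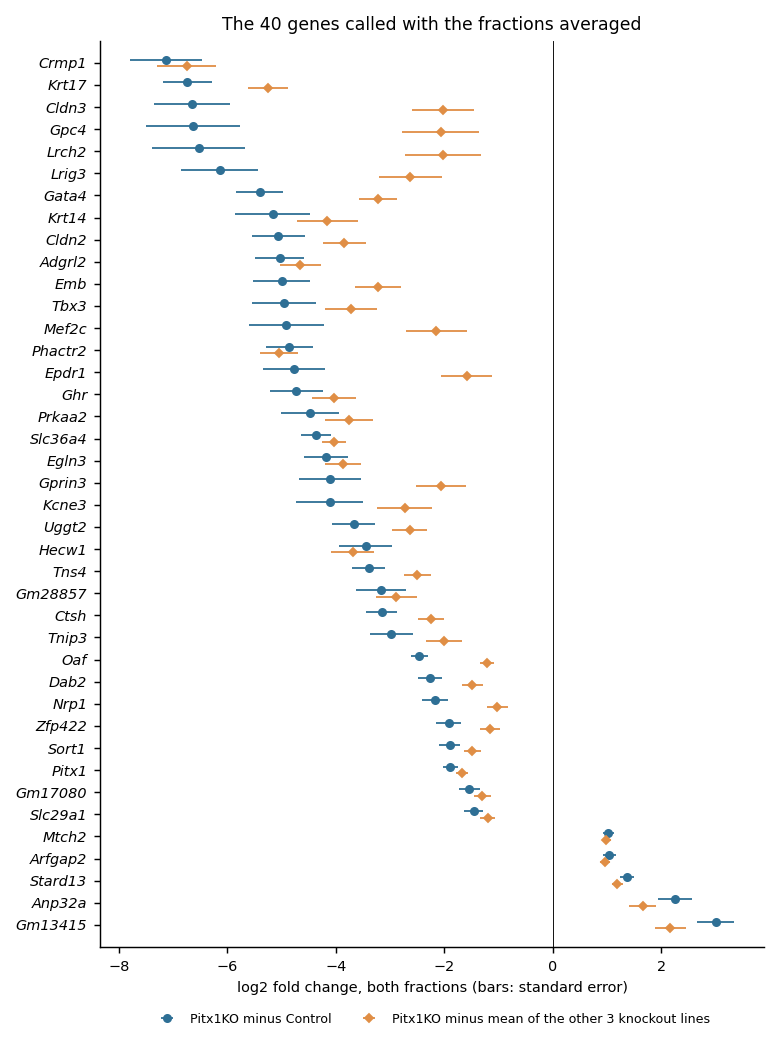
Log2 fold changes over both fractions with standard errors for the 40 genes called in the averaged fit; blue circles compare Pitx1KO with control, orange diamonds Pitx1KO with the mean of the other 3 knockout lines. Crmp1 (-7.13) and Krt17 (-6.74) lead the 35 falls, and the 5 rises reach from 1.03 (Mtch2) to 3.0 (Gm13415).

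The 40 genes called in the averaged fit are described first. Crmp1, a collapsin response mediator of axon guidance (chromosome 5), was at 126, 607, 214 and 645 in control and at 3, 0, 0 and 6 in Pitx1KO libraries (log2 -7.13, standard error 0.67, adjusted p 3.29e-05, averaged fit 0.00171). The 4 knockout libraries held 3 Crmp1 reads in all, a ratio of means of 177 with a counting interval of 60.5 to 858 (95%, exact Poisson, counting error only). It overlaps Evc on the opposite strand (Evc means 545.25 in control and 669.25 in Pitx1KO libraries). Oaf, a secreted protein gene, fell 5.54-fold from 564, 496, 918 and 860 to 93, 101, 169 and 149 (adjusted p 5.02e-07, averaged fit 0.0025). Slc36a4, an amino acid transporter, fell 21.8-fold from 128, 247, 243 and 299 to 18, 8, 10 and 6 (adjusted p 3.33e-07, averaged fit 0.0022).

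Further genes of the 40 are given with their values. Tns4, a tensin of focal adhesions, fell 10.9-fold from 4012, 1519, 2445 and 1204 to 268, 310, 118 and 146 (averaged fit 0.0097). Cldn2, a channel-forming tight junction claudin, fell 42.0-fold from 447, 133, 431 and 122 to 3, 5, 8 and 11 (averaged fit 0.019). Cldn3, a sealing claudin, fell from 58, 331, 69 and 292 to 3, 0, 0 and 0 (log2 -6.65, averaged fit 0.0197). It overlaps the antisense transcript Wbscr25 (means 22 and 6.25), and without stated strand counting their reads cannot be told apart. Adgrl2, a latrophilin adhesion receptor, fell 36.4-fold from 173, 82, 180 and 74 to 0, 5, 3 and 6 (averaged fit 0.0117). Nrp1, a co-receptor for semaphorins and VEGF, fell 4.35-fold from 476, 195, 901 and 553 to 63, 50, 213 and 162 (averaged fit 0.0391). For Nrp1 the lines overlapped only across fractions: within either fraction all knockout libraries were below all control libraries.

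Gata4, a developmental transcription factor, was at 63, 55, 32 and 26 in control and at 0 in all 4 Pitx1KO libraries, at least 5.66-fold lower against a floor of 3 reads per library (log2 -5.40, averaged fit 0.0097). Egln3, a prolyl hydroxylase that marks hypoxia-inducible factors, fell 12-fold from 154, 149, 240 and 335 to 3, 5, 13 and 52 (averaged fit 0.0197). Ctsh, a lysosomal cysteine protease, fell 7.26-fold from 2412, 1221, 1833 and 1129 to 459, 277, 86 and 86. Dab2, an endocytic adaptor, fell 4.99-fold, and Sort1, a sorting receptor, 3.81-fold. Phactr2, a regulator of protein phosphatase 1 and actin, fell 29.9-fold from 131, 65, 140 and 113 to 6, 3, 0 and 6, and Ghr, the growth hormone receptor, fell 45.3-fold from 29, 214, 169 and 585 to 3, 3, 8 and 8. Lrig3, an LRIG family transmembrane protein, was at 29, 212, 160 and 381 in control and at 0, 3, 0 and 3 in Pitx1KO libraries (log2 -6.14, averaged fit 0.0412). Gpc4, a glypican, was at 16, 277, 152 and 539 against 0, 3, 0 and 0 (log2 -6.64, averaged fit 0.0391). Lrch2 was at 14, 285, 157 and 432 against 0, 0, 3 and 0, and its call was absent with voom (0.0539).

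The 5 rises of the averaged fit were smaller. Anp32a, an acidic nuclear protein that inhibits protein phosphatase 2A, rose 4.22-fold from 162, 572, 585 and 684 to 2330, 2293, 2122 and 1710 (log2 2.25, adjusted p 0.00073, averaged fit 0.0405). Stard13, a GTPase-activating protein, rose 2.62-fold from 590, 604, 682 and 615 to 1622, 1250, 2041 and 1608 (averaged fit 0.0246). Mtch2, a protein of the outer mitochondrial membrane, and Arfgap2, which acts in COPI vesicle traffic, rose 2.04-fold and 2.06-fold. Both lie on chromosome 2, as does the predicted gene Gm13415, which rose 7.82-fold. In none of the 5 did a knockout library overlap a control library.

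Further large falls did not hold in the averaged fit. Cdh11, a mesenchymal cadherin, went from 47, 41, 357 and 340 to 0, 5, 0 and 3 (log2 -5.82, adjusted p 0.00143, averaged fit 0.075). Gli2, a Hedgehog pathway transcription factor, fell 35.6-fold from 29, 149, 234 and 301 to 12, 0, 5 and 3 (adjusted p 0.00143, averaged fit 0.0701). Gpr149, an orphan receptor, was at 0 in all 4 Pitx1KO libraries and at 6 to 214 in control libraries, at least 14.8-fold lower (averaged fit 0.0668). Itga6, the laminin-binding integrin chain of hemidesmosomes, fell 4.33-fold from 8611, 4624, 11125 and 3738 to 2770, 2089, 1139 and 494 (adjusted p 0.00398, averaged fit 0.0943). Alcam, an immunoglobulin-type adhesion molecule, fell 3.23-fold from 3096, 5371, 4184 and 6223 to 1083, 1920, 944 and 1889 (adjusted p 0.00107, averaged fit 0.0677). In each of these genes all 4 knockout libraries were below all 4 control libraries, and each call held with any 1 library left out.

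Of the largest rises outside the averaged fit, those of Dusp22, Rbms3 and Tmem151a began from low control levels. Dusp22, a dual-specificity phosphatase, rose 10.02-fold from 0, 14, 9 and 28 to 128, 127, 113 and 143 (log2 3.98, adjusted p 0.00894, averaged fit 0.152). Rbms3, an RNA-binding protein, rose 10.7-fold from 0, 3, 6 and 14 to 18, 31, 86 and 110, and Tmem151a 6.71-fold. Mgst1, a microsomal glutathione transferase, rose 3.74-fold from 154, 98, 357 and 92 to 920, 483, 692 and 525 (averaged fit 0.138). Flt1, a VEGF receptor, rose 3.72-fold from 134, 201, 171 and 179 to 902, 598, 550 and 497 (adjusted p 0.00334, averaged fit 0.0638). These 5 calls held with any 1 library left out. Ret, a receptor tyrosine kinase for GDNF-family ligands, rose 4.76-fold from 165, 515, 277 and 915 to 1657, 2056, 2176 and 3016 (adjusted p 0.0269, averaged fit 0.257), but the call was lost without any of 6 of the 8 libraries (adjusted p 0.0592 to 0.123). Hoxb7 rose 4.20-fold from 21, 36, 83 and 65 to 227, 214, 216 and 203 (adjusted p 0.0177, averaged fit 0.157) and was likewise lost without any of 6 libraries (0.0547 to 0.0716). Both calls held without control EPCAM+ 2, Ret also without control EPCAM- 2 and Hoxb7 also without control EPCAM- 1.

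Epcam, Cdh1 and Vim separated the fractions in both lines and were not called between the lines. The fractions were sorted on EPCAM, so the Epcam levels within them were largely set by the sort. Averaging both fractions equally cannot show a change in the share of EPCAM+ cells. Epcam was at 6153 and 5633 in control EPCAM+ and 5471 and 5923 in Pitx1KO EPCAM+ cells, and at 180 and 441 against 269 and 658 in EPCAM- cells (log2 0.26, adjusted p 0.838). Cdh1, the epithelial cadherin, was at 2903 and 2512 in control EPCAM+ and at 2339 and 2030 in Pitx1KO EPCAM+ cells, and at 251 and 156 against 130 and 151 in EPCAM- cells (log2 -0.40, adjusted p 0.403). Vim, a mesenchymal filament protein, was at 9875 and 9745 in control EPCAM+ and at 67534 and 49071 in control EPCAM- cells, and at 15748, 10950, 52675 and 41775 in Pitx1KO libraries in the same order (log2 0.06, adjusted p 0.953). No EMT transcription factor was called among 17 tested, and the lowest adjusted p in that list was 0.0624. With 4.28% of all tested genes called, lists of this size can hold no call without differing from that share. Zeb1 was at 61, 55, 1183 and 654 in control and at 114, 38, 411 and 78 in Pitx1KO libraries (log2 -1.05, adjusted p 0.446), and passed only with the block (0.0469). Prrx1 was at 2109, 2943, 4150 and 4650 in control and at 2535, 2731, 2327 and 2796 in Pitx1KO libraries (log2 -0.35, adjusted p 0.146). In Pitx1KO libraries the fractions overlapped in Zeb1 and Prrx1, and in control libraries they did not. The Zeb1 overlap arose only across library numbers. Within each number Pitx1KO Zeb1 was higher in EPCAM- cells (411 against 114, and 78 against 38). No gene passed the direct test of a difference between the fractions in the knockout effect, given below. Snai2 and Zeb2 were not called (log2 0.72 and 0.55, adjusted p 0.562 and 0.496). None of 18 epithelial regulators was called. The list median was -0.19 with 10 of 18 genes negative, and the lowest adjusted p was 0.065. Changes ran from -1.40 (Elf5) to 0.81 (Ovol1) on the log2 scale. Grhl2, Esrp1 and Ovol1 had log2 changes of 0.34, 0.62 and 0.81 (adjusted p 0.684, 0.199 and 0.308).

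Within single fractions fewer genes passed. In EPCAM+ cells 80 genes were called (0.409% of those tested, 26 or 0.133% rose and 54 or 0.276% fell), and in EPCAM- cells 179 (0.915%, 66 or 0.337% rose and 113 or 0.577% fell). The fractions were compared within 1 fit that shares the variance of each gene, and fractions of a line and number deviate together, so their calls are not independent. In all 51 genes were called in both in the same direction (14 rose, 37 fell), which is 63.8% of the EPCAM+ and 28.5% of the EPCAM- calls. None was called in opposite directions. The difference between the fractions in the knockout effect was tested directly and 0 genes passed with limma (365 at an unadjusted p below 0.05), as with the block and with voom. Krt17 fell by 6.19 in EPCAM+ and by 7.29 in EPCAM- cells on the log2 scale, while Krt7 fell by 4.15 in EPCAM+ cells (adjusted p 0.0061) and had a log2 change of -1.93 in EPCAM- cells, where it was not called (0.204). Sostdc1, a BMP and Wnt antagonist, was at 66 and 0 in control EPCAM+ and at 1801 and 67 in control EPCAM- cells, and at 0 in all Pitx1KO libraries. Its level rested on the control cells numbered 1, and the joint call was lost without control EPCAM- 1 (adjusted p 0.0503), with voom (0.317) and in the averaged fit (0.181). With only the 8 compared libraries in the fit, 6 genes were called in EPCAM+ and 15 in EPCAM- cells. The EPCAM+ count was 31 without control library 1, 23 without Pitx1KO library 1 and 50 without Pitx1KO library 2, and the EPCAM- count 28, 54 and 56. Without control library 2 the counts were 80 and 182, but 48 rose and 32 fell in EPCAM+ and 100 rose and 82 fell in EPCAM- cells, so most calls were then rises. With the block the counts were 386 and 491.

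**Figure D3:**
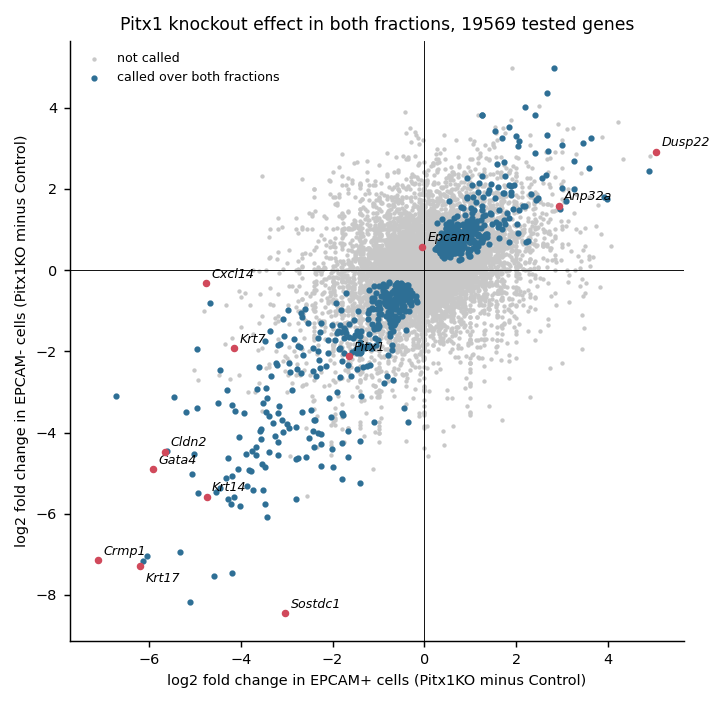
Log2 fold change (Pitx1KO minus control) in EPCAM+ cells (x) and EPCAM- cells (y) for 19569 tested genes; blue points are the 838 genes called over both fractions, and named genes are red. Called genes lie in the lower left and upper right, with Krt17 and Crmp1 below -6 in both fractions and Epcam near 0.

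In 4 adhesion lists between 1 and 5 genes fell, and all tested genes had 2.06% falls and 2.22% rises. Of 35 epithelial junction genes 5 fell (Cldn3, Mal2, Perp, Cldn1 and Cdh3), and the list median was 0.08. Cdh3, the P-cadherin of basal epithelium, fell 2.85-fold from 3336, 1944, 2642 and 1821 to 949, 708, 912 and 847 (adjusted p 0.000848, averaged fit 0.0898). Perp, a desmosomal protein that is also a p53 target, fell 2.44-fold (averaged fit 0.122). Among 30 integrins and adhesion molecules 4 fell (Cdh11, Alcam, L1cam and Pcdh18, median -0.35). Among 33 semaphorins, ephrins and guidance genes 3 fell (Nrp1, Robo2 and Sema4d), and among 12 hemidesmosome genes Itga6 alone fell. Col4a2, a basement membrane collagen chain, and Fbln1, fibulin 1, fell among 33 extracellular matrix genes.

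**Figure D4:**
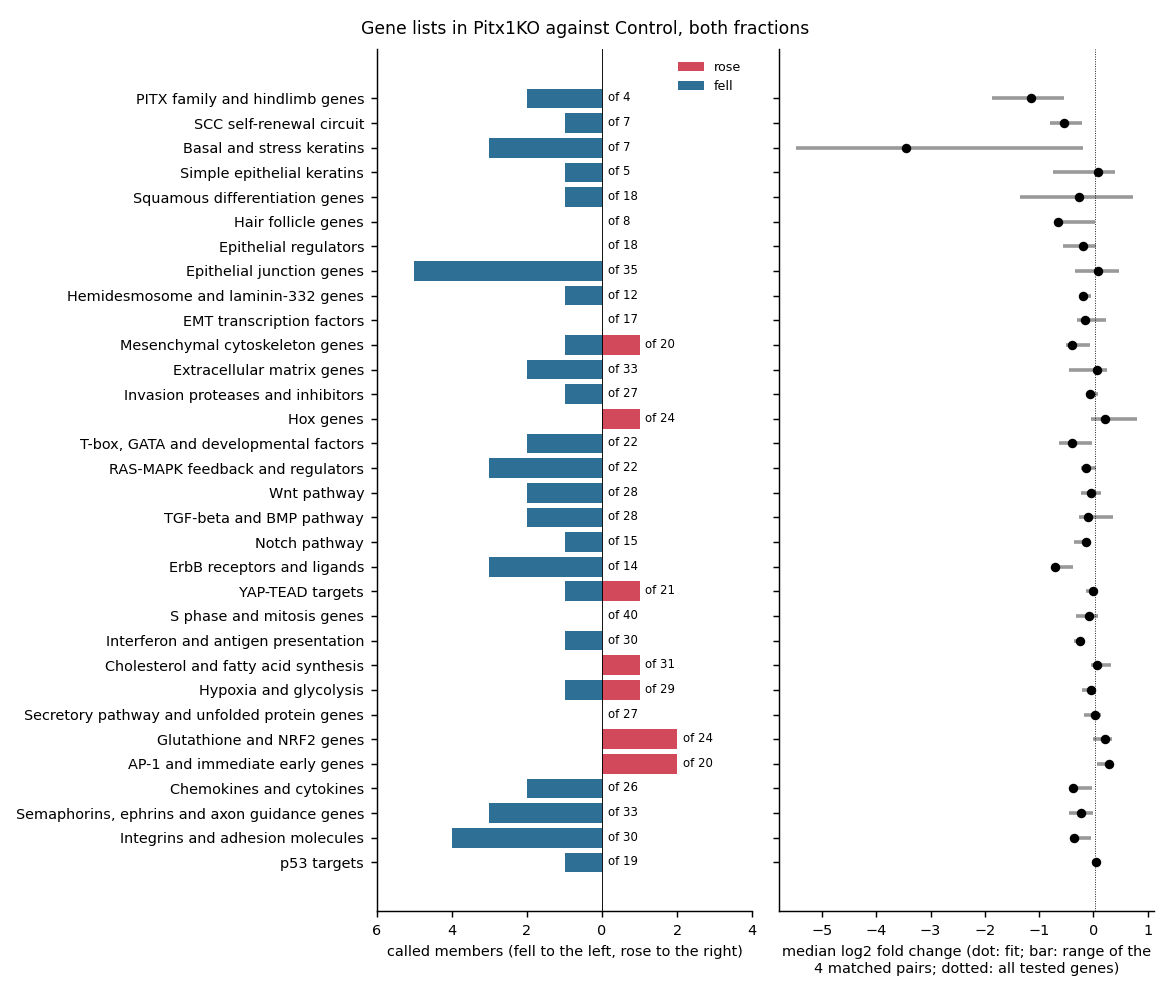
Left, number of genes of each list called lower (blue) or higher (red) in Pitx1KO, with the number tested; right, median log2 fold change of the list (dot), its range over the 4 matched pairs (bar) and the median of all tested genes (dotted line). Junction genes have 5 falls of 35, and the basal and stress keratins the lowest median, -3.45.

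Of 14 genes in the list of ErbB receptors and ligands 3 fell: Lrig3, which is neither, and the EGF receptor ligands Btc and Tgfa. For this and the following lists, the share of falls among all tested genes was 2.06%. Btc had 2 reads in all in the Pitx1KO libraries (ratio of means 11.8, counting interval 3.28 to 97.7). Tgfa fell 1.53-fold from 2543, 2188, 1234 and 886 to 1491, 1714, 690 and 590 (adjusted p 0.0279, averaged fit 0.307). The median of the list was -0.70 with 12 of 14 genes negative. Egfr itself was at 175, 361, 117 and 480 against 15, 146, 81 and 172 (log2 -1.69, adjusted p 0.156) and Erbb3 had a log2 change of -0.77 (adjusted p 0.0793, 0.048 with the block). In the RAS-MAPK list Etv1, Etv5 and Rasa1 fell among 22, and the feedback genes Dusp6 and Spry2 were not called (log2 -0.43 and -0.27). Wnt5a and Fzd8 fell among 28 Wnt genes, Bmp4 and Nog, a BMP ligand and a BMP antagonist, among 28 TGF-beta and BMP genes, and Dll1 among 15 Notch genes. Wnt5a, Bmp4, Nog and Dll1 were not called with voom (0.062, 0.15, 0.084 and 0.12).

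The lists with rises were few, and 2.22% of all tested genes rose and 2.06% fell. Of the rises below, Gstp1 and Fth1 lie on chromosome 19, and Fosl2 and Fscn1 on chromosome 5, where most called genes rose. Gstp1, a glutathione transferase, and Fth1, ferritin heavy chain, rose 1.61-fold and 1.45-fold among 24 glutathione and NRF2 genes (averaged fit 0.264 and 0.319). Fosl2 and Jund, both AP-1 subunits, rose 1.49-fold and 1.5-fold among 20 immediate early genes. Fscn1, the actin bundler of invasive cell protrusions, rose 1.72-fold from 21529, 18077, 19167 and 19767 to 39015, 28397, 35236 and 32494 (adjusted p 0.00144, averaged fit 0.0848). Dpysl3, a relative of Crmp1 in the same cytoskeleton list, fell 5.97-fold and was not called with the block (0.0587). No gene was called among 40 S phase and mitosis genes (log2 -0.43 to 0.57), 27 secretory and unfolded protein genes or 8 hair follicle genes. Of the 75 named genes that were called, 43 held with each of the 8 libraries left out in turn. The calls of Cldn1, L1cam, Robo2, Sema4d, Col4a2, Tgfa, Etv1, Etv5, Wnt5a, Bmp4, Nog, Dll1, Gstp1, Fth1, Fosl2, Jund and Dpysl3 were among the 32 that did not. In those 32 genes the highest adjusted p reached 0.0503 to 0.203.

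Calls were unevenly spread over the chromosomes. Over genes with a mean of at least 50, the median log2 change was -0.30 on chromosome 13, which carries Pitx1, and 0.31, 0.29 and 0.22 on chromosomes 12, 19 and 5. On chromosome 13, 68 of 70 called genes fell, while 53 of 59 rose on chromosome 12, 63 of 64 on chromosome 19 and 97 of 111 on chromosome 5. Chromosome 2 had a median of 0.04, but between 60 and 120 Mb the 20 Mb stretches had medians of 0.37, 0.66 and 0.22, and in the middle one 37 genes rose and none fell. Mtch2 and Arfgap2 lie in that middle stretch, and Stard13 is on chromosome 5. Gm13415 lies outside it, in the stretch from 20 to 40 Mb of chromosome 2, which had a median of -0.0008. Gstp1, Fth1 and Tmem151a lie at 0 to 20 Mb of chromosome 19, with a median of 0.42, 53 rises and 0 falls. On chromosome 5, Fosl2 and Sh3bp2 lie at 20 to 40 Mb (median 0.34) and Pdgfra at 60 to 80 Mb (0.36). Fscn1, Flt1 and Stard13 lie at 140 to 160 Mb there (0.37). Crmp1, a fall, also lies at 20 to 40 Mb of chromosome 5. The rises Anp32a, Ret, Mgst1, Rbms3, Hoxb7 and Jund lie outside chromosomes 2, 5, 12, 13 and 19. The 5 chromosomes held 25.0% of the tested genes, 71.7% of the rises and 34.9% of the falls. On the other chromosomes 386 genes were called (2.63% of 14672), 123 higher and 263 lower. Pitx1 was 1.58 below the median of chromosome 13 on the log2 scale, the 6th lowest of 490 genes there. The part of DNA copy number in these medians was not tested.

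**Figure D5:**
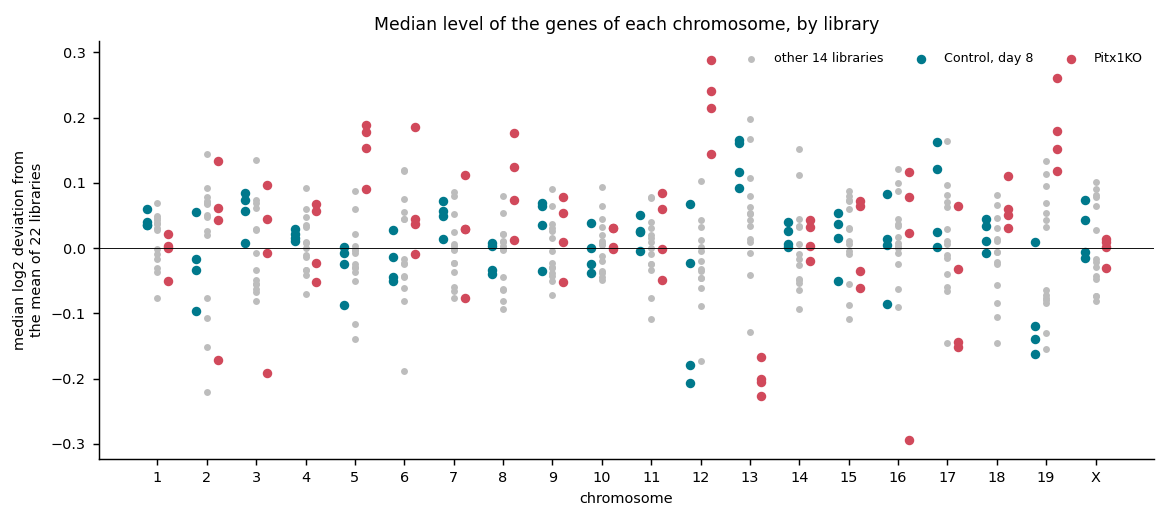
Median log2 deviation of the genes of each chromosome from the mean of the 22 libraries; each point is 1 library (red Pitx1KO, blue control at day 8, grey the other 14). The 4 Pitx1KO libraries lie at -0.23 to -0.17 on chromosome 13, below all others, and at 0.14 to 0.29 on chromosome 12, above all others.

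A comparison that leaves out the control line set Pitx1KO cells against the other knockout lines. Against the mean of the Klf5, Nfatc1 and Creb3l1 knockout lines, with 4 libraries against 12, 993 genes were called (5.07%, 483 or 2.47% rose and 510 or 2.61% fell; with the block 1838). Without 1 Pitx1KO library the count was 424, 657, 411 and 640. Without both fractions it was 263 (Pitx1KO 1 left out, 104 rose and 159 fell) and 625 (Pitx1KO 2). This comparison uses the same Pitx1KO libraries as the one above. Krt17 (log2 -5.25, adjusted p 2.39e-06), Krt14 (-4.16, 0.000522), Krt7 (-4.38, 7.22e-06), Crmp1 (-6.75) and Phactr2 (-5.05) were lower there too, and Hoxb7 was higher (4.38). Cdh11, Krt6a and Itga6 were not called (log2 -0.51, -0.24 and -0.78, adjusted p 0.793, 0.907 and 0.19). Levels of Cdh11 in the other 3 knockout lines were 0 to 47, and Gpc4, at 0 to 29, was not called there (log2 -2.07, adjusted p 0.114). Lrch2, at 0 to 31, and Gpr149, at 0 to 13, were not called either (adjusted p 0.117 and 0.06). Cldn3, at 0 to 18 in those lines, was called close to the threshold (log2 -2.03, adjusted p 0.0493), so its control level was above that of all 4 knockout lines. Among the rises, Ret, Srgap1, Sh3bp2 and Muc16 were not called (log2 1.43, 0.66, 0.47 and 0.53, adjusted p 0.112, 0.25, 0.395 and 0.506). Tmem151a and Pdgfra were not called either (0.0554 and 0.0935). Dusp22, Rbms3, Mgst1, Flt1 and Anp32a were called higher there too.

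The Creb3l1 knockout line shared part of the low levels. Krt17 was at 210, 85, 113 and 52 in that line, at 2896 to 6100 in the Klf5 and 3220 to 7976 in the Nfatc1 knockout line. Crmp1 was at 30 to 62 in the Creb3l1 line and at 425 to 996 in the other 2, and Gata4 was at 0 in all 4 Creb3l1 libraries. Lrig3 was also at 0 in all 4, Tbx3 at 0 to 6, Adgrl2 at 18 to 28 and Nrp1 at 47 to 134. Krt14, by contrast, was at 2034 to 3795 in the Creb3l1 line, and Phactr2 at 55 to 129. In EPCAM+ control cells at day 0 Krt17 was at 5239 and 6451 and Pitx1 at 5494 and 5456.

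Over all 22 libraries the genes whose log2 values were most like those of Krt17 were Crmp1 (Pearson r 0.924), Adgrl2 (0.916), Smyd2 (0.890), Iqgap2 (0.883) and Iars2 (0.860), ranked among 12588 genes. The libraries share lines and batches, and these values are a description. Smyd2, a lysine methyltransferase, had a small difference, from 1311, 1183, 1189 and 1234 to 863, 840, 873 and 941, but with no overlap between the lines. Iqgap2, a scaffold of the cytoskeleton, was at 447, 198, 166 and 170 in control and at 18, 52, 27 and 42 in Pitx1KO libraries.

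Markers of other cell types were present at different levels. The 10 immune markers summed to 193 to 249 in control and 146 to 365 in Pitx1KO libraries, and the 5 endothelial markers to 96 to 204 and 110 to 431. Melanocyte markers summed to 6 to 42 and 13 to 45, and muscle markers to 0 to 76 and 9 to 25. None of these was called, and Cd3e, Tyrobp, Tek, Dct, Tyr and Myh4 were at 0 in all 8 libraries. The 5 fibroblast markers summed to 285 to 1749 in control and 682 to 4926 in Pitx1KO libraries, with 1 of 4 tested called. That gene was Pdgfra, a PDGF receptor, which rose 3.79-fold from 19, 84, 43 and 124 to 182, 282, 162 and 398 (adjusted p 0.00981, averaged fit 0.184), and was not called without control EPCAM- 1 (0.0519) or Pitx1KO EPCAM- 2 (0.0533). Col1a1 was at 81, 201, 667 and 585 against 589, 392, 3666 and 2424 (log2 2.08, adjusted p 0.171). Of the 4 tested fibroblast markers 3 had positive changes. Dcn went the other way (log2 -2.78) and was not called. All cells were sorted as YFP+ and mCherry+, and the part of other cells in these values was not tested. In bulk samples fewer cells with a transcript and less transcript per cell cannot be told apart.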

How the data were processed

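Per the submitters' processing notes, reads were handled with FastQC, Trimmomatic, STAR, Picard and HTSeq on GRCm38/mm10; versions, roles and strand setting are not given in the sources used here. The deposited table holds 49671 genes by 22 libraries. Its unit is not stated in full and was read as a score: read counts the authors scaled to a common total (20007331 to 20014236 per library) and rounded up. Dividing by the step of 1 read gave whole reads for 99.8 to 99.9% of values above 0, and 6054918 to 9882692 reads per library. A read count test is therefore only an alternative (voom).

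A gene entered the tests if 2 or more libraries reached a value of 10, which left 19569, analysed on log2(value + 1) with limma 3.58.1 (R 4.3.3): 1 mean per group over all 22 libraries, trended and robust variance moderation (11 residual degrees of freedom), Benjamini-Hochberg adjustment. Fold changes named "log2" are on this scale, which understates changes of low genes; other folds are ratios of means, with a floor of 3 reads per library where a line was at 0. On simulated data for the joint comparison (19569 genes) 72% of 100 genes with a mean of 100 or more changed 2-fold and 92% of 100 changed 4-fold were recovered, with 10 unchanged genes called. The simulated libraries were drawn independently, without the shared deviations of fractions of 1 line and number. These simulated results therefore do not carry over to the real libraries. Positions came from GENCODE M21 (99.3% of genes matched), promoters from RefSeq on GRCm38.p6. Python 3.11.15, pandas 2.3.3 and matplotlib 3.10.9 were used for tables and figures.

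The library number equals the batch tag in the labels and so pairs libraries: in the 4 groups compared, deviations of same-numbered libraries correlated in 6 of 6 pairs of groups (0.328 to 0.695). The fit without the block is the main one, and blocked values are printed where they change a call. Members and lists (37 lists) were chosen with earlier results of these data known. Named genes followed a rule: Pitx1, Krt17, Epcam and the other targeted genes; up to 15 rises and 15 falls by fold with a mean of at least 50 and no overlap; up to 4 called genes per list and 4 called in 1 fraction only; and 3 lists in full. Further genes of the 40 in the averaged fit, and uncalled list members given for context, were named after their values were seen. Alternatives covered the block, pseudocount, filter, scaling, voom, the libraries fitted and each library left out. Some members of the lists are not reported here.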

Additional observations from a re-analysis of the deposited data

How the results depend on the processing

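The count for both fractions (838) was 1717 with the replicate block, 1849 with the block by fraction and number in 8 libraries, 40 with the fractions averaged, and 386 without the genes of chromosomes 2, 5, 12, 13 and 19, a set chosen after seeing the data; leaving out 1 library gave 455 to 684, both fractions of a control number 446 to 836, and both of a Pitx1KO number 398 to 400. It was 694 to 855 with the other pseudocount, filters, scaling, voom or only the 8 libraries, and 718 without chromosome 2. In EPCAM+ cells (80) the count was 386 with the replicate block, 6 with only the 8 libraries, 39 with voom and 23 to 80 with a library left out. In EPCAM- cells (179) it was 491, 15, 128 and 28 to 182. Against the other 3 knockout lines (993) it was 1838 with the block and 411 to 657 with a Pitx1KO library left out (263 to 625 with both of a number), and with voom 613 genes rose and 373 fell. The cause of these differences was not tested. The difference between fractions gave 0 calls under each of 6 alternatives. A group left with 1 library is taken to vary like the others. No named call changed sign. Of 75 named calls 15 held with the fractions averaged, 60 with voom, 52 with only the 8 libraries and 74 with the replicate block. With both fractions of 1 number of a line left out in turn 30 held. Of 333 list medians recomputed 37 moved by more than the spread of the 4 pairs, 9 of them for the fibroblast markers; the basal and stress keratins ranged from -4.79 to -2.11. Of 180 chromosome medians 3 moved, all on chromosome X. Genes under about 3 reads per library are at the limit of this depth.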

Other observations

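The rule for named genes also picked some called genes that the comparison above leaves undescribed. Lrp2, a large endocytic receptor, was at 3412, 2502, 1420 and 2238 in control and at 578, 240, 929 and 865 in Pitx1KO libraries (log2 -1.98, adjusted p 0.00861, averaged fit 0.0877); in EPCAM+ cells alone it passed (0.0241), in EPCAM- cells alone it did not (0.591), and the difference between the fractions did not pass (adjusted p 1). Ptprz1, a receptor tyrosine phosphatase, fell 25.0-fold from 47, 125, 169 and 159 to 12, 3, 5 and 0 (adjusted p 0.000747, averaged fit 0.0577), and in the other 3 knockout lines it was at 0 to 21. Cxxc4, an inhibitor of Wnt signalling, went from 24, 44, 123 and 136 to 0, 0, 3 and 3 (adjusted p 0.00205, averaged fit 0.0955). Srgap1, a GTPase-activating protein in Slit-Robo signalling, rose 4.02-fold from 55, 60, 32 and 85 to 250, 153, 274 and 255, and Sh3bp2, an adaptor protein, 3.60-fold from 144, 325, 95 and 319 to 780, 905, 702 and 788. Muc16, a membrane mucin, rose 3.08-fold (adjusted p 0.0245), a call lost without control EPCAM+ 1, Pitx1KO EPCAM+ 1, Pitx1KO EPCAM+ 2 or Pitx1KO EPCAM- 2 (0.0641 to 0.1003). Srgap1, Sh3bp2 and Muc16 were not called against the other 3 knockout lines. In those lines Sh3bp2 was at 330 to 861, above all control libraries.

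The other targeted genes of the series were not called in Pitx1KO cells. Klf5 was at 2585, 1733, 2941 and 1803 in control and at 1645, 1500, 1682 and 1255 in Pitx1KO libraries (log2 -0.55, adjusted p 0.135, with the replicate block 0.0339, averaged fit 0.424). Nfatc1 had a log2 change of 0.20 (adjusted p 0.767), and Creb3l1, at 0 in EPCAM+ cells of both lines, was at 137 and 26 in control and at 8 and 3 in Pitx1KO EPCAM- cells (adjusted p 0.321).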
